A study of Mus musculus with 26 samples.

Results

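Control haematopoietic stem cells (HSCs), the sorted bone marrow cells that stand for the unmutated state in a mouse study of myeloproliferative neoplasm, were described from 4 of the 26 RNA-seq libraries of the series. The 4 are the libraries with the genotype label CTR, also described as WT, whose titles carry a number before the group code. They are called control replicates 1 to 4 here. The fifth control library, titled in the other style with the number after the code, was kept apart and used only as a check. The other groups were HSCs with JAK2V617F, the activating kinase mutation that drives these neoplasms, HSCs with loss of Ezh2, the histone methyltransferase of Polycomb repressive complex 2, and HSCs with both (double mutant). Of the libraries titled in the same style as the 4 controls there were 7 double-mutant, 2 JAK2V617F and 2 Ezh2-loss libraries. All cells were purified by flow cytometry and amplified with Smart-Seq2, a full-length cDNA method for few or single cells. The alleles, any Cre driver that the controls carry too, the surface markers of the sort, age, strain, pooling of mice and cells per library are not stated in the labels. Nothing in the labels says that the replicates came from separate animals, so their spread may be technical in part.

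HSCs sit at the top of blood formation: they renew themselves, divide rarely, and give rise to every blood lineage through progenitors of narrowing potential. In mouse bone marrow they are usually sorted as cells that lack mature lineage antigens and carry the stem cell factor receptor Kit and the Ly6 family protein Sca-1 (Ly6a), together with the SLAM receptor CD150 (Slamf1) and the endothelial protein C receptor (Procr). Progenitors further down are marked by CD48 and by the cytokine receptor Flt3. A core of DNA-binding factors, among them the Gata, Tal, Lyl, Runx, Ets and Meis families with the adaptors Lmo2 and Ldb1, maintains the stem cell state.

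Levels are RPKM, reads scaled to the gene's length and the library's depth. They can be compared between genes, but the summed RPKM differs between libraries, so equal levels are not equal shares of the RNA. Rescaled to equal totals (TPM), 9061 genes reached 1 in all 4 libraries, in place of 8686 by RPKM. The read totals recovered from the values were 16744155, 19386206, 20257170 and 18958621 reads for control replicates 1 to 4 and 12182993 for the fifth control. At these depths, 3 reads on a gene of 2 kb are worth 0.074 to 0.090 RPKM in the 4 libraries. Between 10150 and 11007 genes reached 1 RPKM in each. Across genes, Pearson's r of log2(RPKM + 1) between pairs of the 4 ran from 0.935 to 0.952, against 0.899 to 0.902 with the fifth control. Genes are not independent replicates, so these values only describe likeness, and no pair of libraries held the same non-zero value for any gene.

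The 4 genes by which mouse HSCs are most often sorted were all present, defined here as at least 1 RPKM in all 4 libraries. Ly6a (chr15:74994877-74998031, minus strand; all gene positions are GRCm38 from GENCODE M21) was at 705, 305, 419 and 549 RPKM in control replicates 1 to 4. Procr (chr2:155751117-155755471, plus strand) was at 176, 97.7, 119 and 168 RPKM. Kit (chr5:75574916-75656722, plus strand), which binds stem cell factor, was at 64.3, 80.6, 93.0 and 64.0 RPKM. These 3 genes therefore stayed within 2.31-fold between the highest and the lowest library. Slamf1 (chr1:171767127-171801184, plus strand) was at 48.4, 33.7, 29.4 and 81.7 RPKM and had the widest range of the 4, 2.77-fold. Control replicates 1 and 4 were the higher pair for Procr, Ly6a and Slamf1 and the lower pair for Kit. As mean ± SD (n = 4) the levels were 494 ± 172 for Ly6a, 140 ± 37.7 for Procr, 75.5 ± 14.03 for Kit and 48.3 ± 23.7 for Slamf1. In bulk libraries such as these, a lower level in fewer cells and less RNA in each cell cannot be told apart.

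The 5 surface genes that were not present included Cd48 and Flt3, while Cd34 and Cd27, given below with the rest of the list, were. Cd48 (chr1:171682009-171705258, plus strand), the SLAM family gene whose protein appears on multipotent and committed progenitors, was listed at 0 in all 4 libraries and in the fifth control. At the depth of the 4 libraries, 3 reads on this gene would have given 0.125 to 0.151 RPKM. A level under that floor would not have been detected reliably (counting error only, since Smart-Seq2 reads carry no molecular identifiers). Prom1 (chr5:43993620-44102032, minus strand), which encodes the glycoprotein CD133, was also listed at 0 in all 5, with a floor of 0.0206 to 0.025 RPKM. Flt3, the receptor of multipotent and lymphoid-primed progenitors, was at 0.866, 1.98, 0.824 and 0.0144 RPKM and so passed 1 RPKM only in control replicate 2. Thy1, a surface glycoprotein used to split stem from progenitor cells, was listed at 0 in control replicates 1 and 3 and at 4.31 and 4.44 RPKM in replicates 2 and 4. Neo1, a netrin-family receptor, missed the threshold only in control replicate 4, with 3.70, 4.95, 1.81 and 0.714 RPKM.

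**Figure D1:**
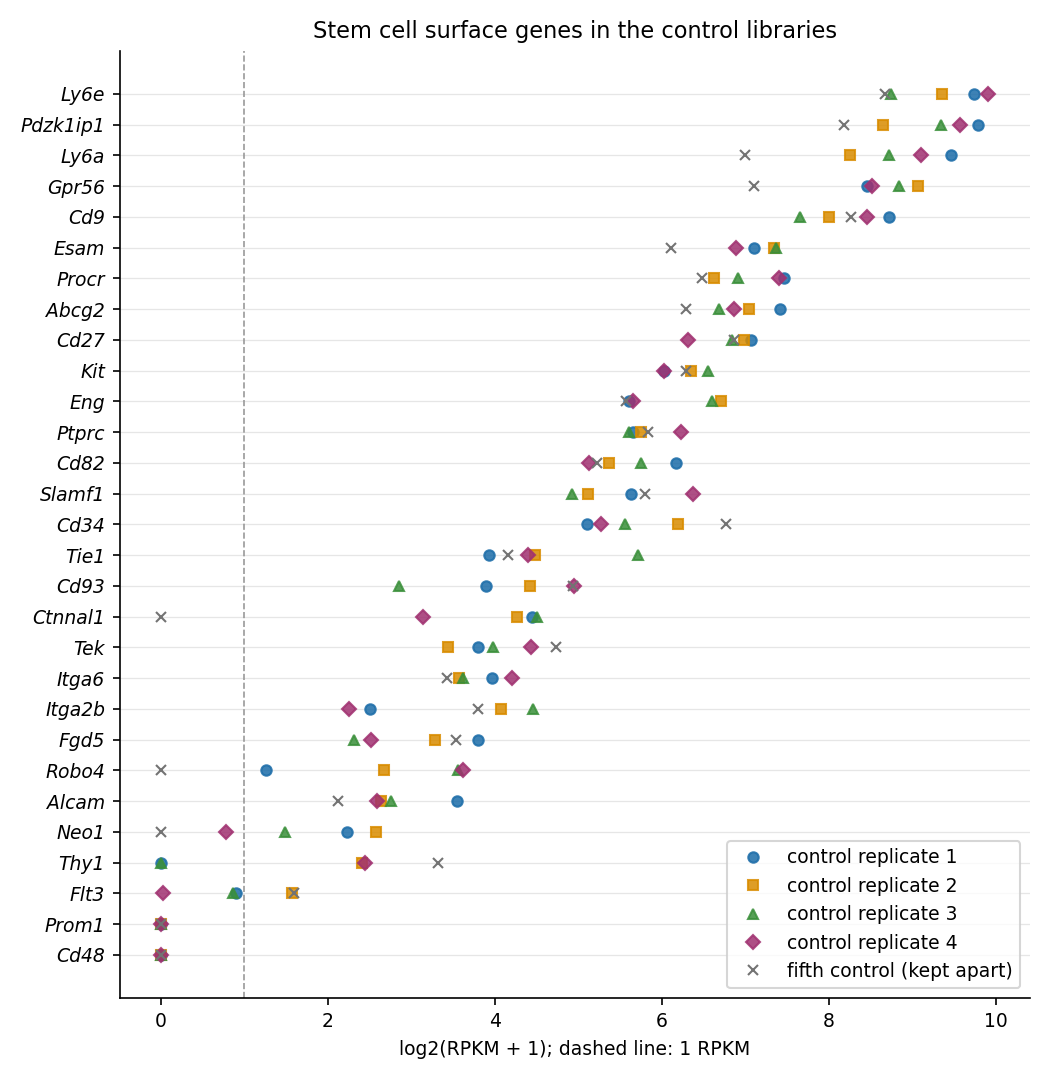
Levels of stem cell surface genes as log2(RPKM + 1), 1 symbol per control library and a cross for the fifth control; the dashed line is 1 RPKM. Most genes lie to the right of the line in all 4 libraries, and Cd48 and Prom1 sit at 0 in all 5.

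In all, 25 of 30 surface genes were present, 3 were in between and 2 were listed at 0, while 37.1% of the genes in the whole table were present. The highest were Ly6e (724 ± 235 RPKM), a Ly6 protein, and Pdzk1ip1 (672 ± 204 RPKM), a small membrane protein. The adhesion receptor Gpr56 was at 427 ± 86.6 RPKM and the tetraspanin Cd9 at 307 ± 97.8 RPKM. Endothelial-type surface genes shared by HSCs and vessel cells were also present: the junction protein Esam was at 145 ± 22.01 RPKM, the TGF-beta co-receptor Eng at 74.4 ± 29.9 RPKM, and the angiopoietin receptor Tek at 14.5 ± 4.48 RPKM. Tie1, a relative of Tek, was at 14.2, 21.4, 51.3 and 20.1 RPKM, with control replicate 3 apart from the others. The drug efflux pump Abcg2 was at 129 ± 29.1 RPKM, the TNF receptor family member Cd27 at 112 ± 24.1 RPKM, and the pan-leukocyte phosphatase Ptprc (CD45) at 55.9 ± 12.1 RPKM. Cd34, which marks the cells that leave the most dormant compartment in adult mice, was at 33.3, 72.2, 46.1 and 37.5 RPKM. The tetraspanin Cd82 was at 49.6 ± 16.4 RPKM and the C-type lectin family receptor Cd93 at 17.6 ± 10.1 RPKM.

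Among the lower surface genes, levels overlapped broadly. Ctnnal1, an alpha-catenin-like gene used as an HSC reporter, was at 20.8, 18.2, 21.7 and 7.84 RPKM. Fgd5, an exchange factor whose locus is likewise used as an HSC reporter, was at 12.9, 8.71, 3.99 and 4.71 RPKM. The integrin chains Itga6 and Itga2b were at 13.6 ± 3.07 and 11.3 ± 8.42 RPKM, and Itga2b was split between 15.8 and 20.9 RPKM in control replicates 2 and 3 and 4.69 and 3.78 RPKM in replicates 1 and 4. Robo4, a guidance receptor of HSCs and endothelium, was at 1.39, 5.37, 10.8 and 11.2 RPKM. Alcam was at 6.66 ± 2.69 RPKM. None of these 6 means was separated from its neighbour in the order by more than their SDs.

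The promoters of marker genes are printed to show what kind of start site stands behind a present and an absent gene. Each is the window of 250 bases before the RefSeq start site (GRCm38.p6), on the gene's strand, 5′ to 3′. Kit and Prom1 have 2 listed start sites each, and only the window of the first listed was used. Capitals mark any of the 5 motifs searched on both strands, with overlapping matches kept. The GC box was searched as GGGCGG and the TATA box as TATAAA. The core of the Ets factors was searched as CCGGAAG. The site of NF-Y was searched as CCAAT, and that of the Gata factors as AGATAA.
Procr, chr2:155750967-155751216, plus strand: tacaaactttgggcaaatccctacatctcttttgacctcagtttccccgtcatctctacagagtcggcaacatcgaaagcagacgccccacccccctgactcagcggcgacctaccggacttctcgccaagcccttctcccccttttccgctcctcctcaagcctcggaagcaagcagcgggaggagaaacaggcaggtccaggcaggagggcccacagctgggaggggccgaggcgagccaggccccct
Kit, chr5:75574737-75574986, plus strand: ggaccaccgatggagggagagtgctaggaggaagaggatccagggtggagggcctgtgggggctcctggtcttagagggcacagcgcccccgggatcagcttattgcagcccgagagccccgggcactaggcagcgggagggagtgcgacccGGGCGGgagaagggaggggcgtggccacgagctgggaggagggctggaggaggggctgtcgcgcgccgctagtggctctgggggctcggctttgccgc
Prom1, chr5:44101737-44101986, minus strand: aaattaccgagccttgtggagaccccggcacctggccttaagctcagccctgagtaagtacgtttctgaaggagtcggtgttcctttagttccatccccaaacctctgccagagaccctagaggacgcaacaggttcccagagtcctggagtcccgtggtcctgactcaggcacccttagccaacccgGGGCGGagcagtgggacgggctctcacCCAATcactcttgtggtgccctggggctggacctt
The window of Procr held none of the 5 motifs. Kit had a GC box at position -98 from the start site. Prom1, listed at 0, had a GC box at -62 and a CCAAT box at -35, so the letters of the GC box were found before a gene with no reads as well as before Kit. A match is only a match of letters and shows no binding.

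Of the 8686 present genes, 80.9% had a window, 1 start site per gene. GGGCGG was found in 61.0% of these windows, against 32.9% of all 27025 windows of the reference table. CCGGAAG stood in 16.0% and 7.05%, TATAAA in 5.92% and 12.97%, AGATAA in 5.54% and 10.2%, and CCAAT in 36.8% and 34.5%. The median share of G and C was 60.0% and 52.0%. Over all genes of the table, of which 75.6% had a window, GGGCGG was found in 43.3%, CCGGAAG in 9.18%, TATAAA in 12.06%, AGATAA in 9.08% and CCAAT in 36.4%, with a median share of G and C of 55.6%. With that coverage these last shares are a description only, and CCAAT differed little between the present genes and either set. For the genes listed at 0 the same count is void, because only 71.5% of them had a window.

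Most stem cell transcription factors were present, against 37.1% of all genes. Of 42 genes on that list 36 were present, 5 were in between and 1, Sox17, a factor of fetal HSCs, was listed at 0 in all 26 libraries. By level they were led by the adaptor Lmo2, with 1053, 823, 944 and 963 RPKM. Lmo2 bridges the Tal1 and Gata proteins, and its partner Ldb1 was at 43.8, 61.7, 61.9 and 44.9 RPKM. Gfi1b, a repressor that limits HSC cycling, was at 158, 179, 172 and 149 RPKM. The homeobox factor Meis1 was at 195, 136, 133 and 133 RPKM, with control replicate 1 apart from the other 3. Mycn, the Myc family member of immature cells, was at 107, 189, 154 and 103 RPKM, and Gata2, a zinc finger factor required for HSC maintenance, was at 74.4, 166, 131 and 132 RPKM. The basic helix-loop-helix factor Lyl1 was at 112 ± 14.3 RPKM, Myb at 85.3 ± 18.1 RPKM and the Ets factor Fli1 at 83.3 ± 20.7 RPKM. Tcf15, a helix-loop-helix factor linked to HSC quiescence, was at 82.9, 85.7, 76.1 and 73.6 RPKM, a 1.16-fold range.

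The other members ran from Hlf (47.1 ± 7.08 RPKM), a PAR bZIP factor, down to Prdm16 (2.60 ± 0.469 RPKM), a zinc finger factor of HSC maintenance. Tal1 itself was at 16.5 ± 3.01 RPKM, Runx1 at 10.5 ± 2.37 RPKM and Erg at 18.6 ± 9.28 RPKM, well under Lmo2. Mecom, which encodes the Evi1 protein of long-term HSCs, was at 19.99, 34.1, 29.3 and 20.4 RPKM. Among the Hox genes Hoxa9 was the highest at 29.4 ± 6.05 RPKM, followed by Hoxb5 (23.9 ± 8.56 RPKM), Hoxa5 (19.9 ± 9.38 RPKM), Hoxa7 (19.4 ± 7.55 RPKM) and Hoxa10 (18.96 ± 8.49 RPKM), with neighbours in this order closer than their SDs. Hoxb6, Hoxb4 and Hoxb3 lay lower, at 4.14 ± 1.01, 3.71 ± 1.93 and 2.97 ± 1.05 RPKM. The 5 members in between were Gfi1, Foxo3, Rora, Satb1 and Zbtb16. The median coefficient of variation (CV, SD divided by mean) of the 32 members with a mean of at least 5 RPKM was 0.26. For all genes with a mean of at least 5 RPKM it was 0.34. The members and all genes were not matched for level above that line, and the CV falls with level, as given below.

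Lineage-determining factors were present in 4 of 6, 4 of 10 and 6 of 14 cases for the erythroid and megakaryocytic, myeloid and lymphoid branches, against 37.1% of all genes. For the erythroid and megakaryocytic branch, Nfe2, the subunit of a globin and platelet gene activator, was at 588, 571, 545 and 547 RPKM, while Gata1, the master factor of that branch, was listed at 0 in 3 libraries and was at 9.27 RPKM in control replicate 3. Zfpm1, the cofactor of Gata1, was at 7.60, 30.2, 59.1 and 13.9 RPKM, also highest in replicate 3. Klf1, the erythroid Krüppel-like factor, was at 5.10, 2.89, 3.32 and 0 RPKM, and Klf3, a related repressor, was present at 8.42 ± 4.09 RPKM.

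For the myeloid branch 4 of 10 factors were present, and they were led by Spi1 (PU.1, listed in the table under its older symbol Sfpi1), with 113, 105, 122 and 108 RPKM. Cebpb, which acts in emergency granulopoiesis, was at 67.9, 56.5, 97.2 and 120 RPKM. The granulocyte factor Cebpa was listed at 0 in control replicate 1 and was at 4.09, 2.62 and 1.26 RPKM in the others, and Cebpe, of late granulopoiesis, was listed at 0 in all 4. Klf4 (10.96 ± 8.21 RPKM) and Cebpd (9.57 ± 7.49 RPKM) were the other 2 present factors, with SDs close to their means.

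The lymphoid factors had no member in between: 6 of 14 were present and 8 were listed at 0 in all 4. Among those present were the helix-loop-helix inhibitor Id2 (118, 35.1, 57.2 and 115 RPKM), Gata3 (24.3 ± 6.11 RPKM), Bcl11a (19.4 ± 1.77 RPKM) and the E proteins Tcf3 (17.2 ± 10.1 RPKM) and Tcf12 (7.73 ± 3.50 RPKM). Listed at 0 were Ebf1 and Pax5, which commit cells to the B lineage, Tcf7, Lef1 and Bcl11b, which act in T cell commitment, and Tbx21, Eomes and Ikzf3.

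Receptors tell which outside signals the cells could receive at the RNA level. Of 45 cytokine receptor genes 22 were present, against 37.1% of all genes, 14 were in between and 9 were listed at 0. The common gamma chain Il2rg was at 367, 201, 282 and 213 RPKM, with control replicate 1 the highest. Of the gamma chain's partners, the interleukin-7 receptor Il7r and the interleukin-2 receptor chains Il2ra and Il2rb were listed at 0 in all 4, while Il21r was present at 30.1 ± 7.74 RPKM and Il15ra at 30.3 ± 11.5 RPKM. Il4ra reached 1 RPKM in 3 of the 4, with 0.258, 5.88, 4.196 and 3.59 RPKM. The thymic stromal lymphopoietin receptor Crlf2 was at 36.9 ± 12.3 RPKM.

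The 4 interferon receptor chains on the list were present. The type II receptor chain Ifngr1 was at 133, 104, 74.9 and 161 RPKM and its partner Ifngr2 at 22.9, 12.5, 9.54 and 43.3 RPKM. For the type I receptor, Ifnar2 was at 35.0 ± 10.6 RPKM and Ifnar1 at 14.8 ± 6.34 RPKM. In each of these 4 genes control replicates 1 and 4 were the highest 2 libraries. The TNF receptors Tnfrsf1a (45.4 ± 14.5 RPKM) and Tnfrsf1b (12.1 ± 5.23 RPKM) were present too.

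Receptors of lineage-restricted growth factors were lower. Epor, for erythropoietin, was at 9.18, 7.33, 27.0 and 15.5 RPKM, and Csf3r, for granulocyte colony-stimulating factor, at 6.72, 2.55, 10.7 and 9.50 RPKM. Csf1r, for macrophage colony-stimulating factor, and Il5ra, of eosinophils, were listed at 0 in all 4. Il11ra1, a receptor of the interleukin-6 family, was at 67.1 ± 14.7 RPKM, whereas the shared signalling chain of that family, Il6st, was at 0.931, 0.312, 1.35 and 7.40 RPKM and passed 1 RPKM in 2 libraries. The interleukin-3 receptor chain Il3ra was at 8.72 ± 3.78 RPKM and its common beta chain Csf2rb at 0, 1.49, 2.24 and 5.24 RPKM. Ghr, for growth hormone, was at 8.94 ± 4.06 RPKM, and Lepr and Prlr, for leptin and prolactin, were at 1 RPKM or more in 1 and in 0 libraries.

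Niche and adhesion receptors were present in 20 of 40 cases, against 37.1% of all genes, and in between in 18. Cxcr2 and Ccr2, the chemokine receptors of neutrophils and monocytes, were listed at 0. Selplg, the P-selectin ligand, was at 64.8, 76.9, 73.0 and 54.2 RPKM, and the beta-1 integrin Itgb1 at 56.4, 98.9, 50.5 and 21.3 RPKM. Cd44, the hyaluronan receptor, was at 18.8 ± 4.94 RPKM. Cxcr4, which holds HSCs in the marrow by binding Cxcl12, was at 9.35, 5.86, 11.8 and 20.03 RPKM, and the egress receptor S1pr1 at 10.8, 2.47, 14.8 and 22.4 RPKM. The TGF-beta receptors Tgfbr1 and Tgfbr2 were at 5.97 ± 2.38 and 6.29 ± 2.78 RPKM, whereas the BMP receptors Bmpr1a and Bmpr2 stayed in between, at 0.547 ± 1.09 and 0.740 ± 0.772 RPKM.

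The most abundant RNAs were those of antigen presentation, iron storage, interferon-induced membrane proteins and ribosomes. B2m, the light chain of MHC class I, was the highest of all genes, at 15306, 7895, 8756 and 11826 RPKM. It was followed by the actin-binding peptide Tmsb4x (4041 ± 995 RPKM), the ferritin light chain Ftl1 (3957 ± 931 RPKM) and Ifitm3 (3522 ± 724 RPKM) and Ifitm1 (3305 ± 1541 RPKM). In all but Rn45s among the top 15 the highest library was within 2.62-fold of the lowest. Further down came Rps14 (2885 ± 565 RPKM), the glutathione peroxidase Gpx1 (2505 ± 183 RPKM), Rpl32 (2384 ± 761 RPKM), the carbonic anhydrase Car2 (2164 ± 273 RPKM), Rpl13 (1977 ± 358 RPKM), the MHC heavy chain H2-K1 (1924 ± 148 RPKM), the ferritin heavy chain Fth1 (1895 ± 442 RPKM), Ifitm2 (1868 ± 457 RPKM) and Rps19 (1810 ± 236 RPKM). Rn45s, the precursor of ribosomal RNA, was ninth by mean only through control replicate 3: it was at 485, 214, 7907 and 615 RPKM. Several of these genes have processed pseudogenes or near-identical relatives, so how the authors' counting shared reads among copies could move their levels.

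Among the 100 highest genes, 30 encoded cytosolic ribosomal proteins and 14 nuclear-encoded subunits of oxidative phosphorylation. The 30 ribosomal protein genes made up 5.60, 5.12, 5.59 and 7.03% of the summed RPKM in control replicates 1 to 4. The 3 Ifitm genes alone made up 1.81, 1.05, 1.24 and 1.67%, and B2m with 2 MHC class I heavy chains 2.88, 1.93, 2.07 and 2.29%. Between 472 and 670 genes carried the first 50% of the summed RPKM in a library.

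Across the whole table, 8686 of 23416 genes (37.1%) were present, 9317 (39.8%) were listed at 0 in all 4, and 5413 (23.1%) were in between. The middle group holds genes on both sides of the threshold: 1432 genes reached 1 RPKM in 3 libraries, 1066 in 2 and 1328 in 1. Just inside the line were Mtmr11, Gon4l and Prkca, whose lowest values were 1.001, 1.002 and 1.005 RPKM, and just outside were Adamtsl5, Gopc and Srf, whose lowest values were 0.998, 0.996 and 0.996 RPKM. For 320 genes 1 library was at 10 RPKM or more while another was listed at 0. Of the present genes, 6821 (78.5%) reached 1 RPKM in all 11 other libraries of the same title style, and of the genes listed at 0, 7099 (76.2%) were at 0 in all 11.

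Lists of mature blood and stromal cell genes are given next, to be read against the 37.1% of all genes that were present and the 39.8% listed at 0. In the erythroid list 4 of 18 genes were present and 8 were listed at 0. Car2 stood far above the others, at 1981, 2545, 1950 and 2181 RPKM, and the beta-globin gene listed as Beta-s was at 16.5, 14.9, 2.16 and 16.8 RPKM. The Rh-associated glycoprotein Rhag was at 3.38, 6.17, 1.19 and 29.4 RPKM and the transferrin receptor Tfrc at 5.29 ± 2.23 RPKM. Slc4a1, the anion exchanger of the red cell membrane, was listed at 0 in all 4. Hba-a1, Hba-a2 and Hbb-b2 were also listed at 0, but alpha- and beta-globin genes come in near-identical copies whose reads the counting may drop, so their zeros are uncertain.

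Of 20 platelet genes 11 were present, against 37.1% of all genes, and 1 (Gp6, the collagen receptor) was listed at 0. The chemokine platelet factor 4 (Pf4) was at 284, 79.1, 110 and 172 RPKM, the von Willebrand receptor subunit Gp9 at 60.2, 91.5, 135 and 147 RPKM, and clusterin (Clu) at 43.0, 44.5, 92.4 and 66.9 RPKM. Vwf, von Willebrand factor, which marks platelet-primed HSCs, was at 9.88, 9.27, 25.7 and 9.77 RPKM, with control replicate 3 apart. Ppbp, Treml1 and Tubb1, genes of late megakaryocytes and platelets, were each listed at 0 in at least 1 library. Itga2b stands on the list of stem cell surface genes too.

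Of 16 neutrophil genes 3 were present. Prtn3, proteinase 3, was at 441, 219, 346 and 432 RPKM, far above other granule protein genes of its stage. Elane reached 4.21 RPKM in control replicate 2 and was listed at 0 in the rest. Mpo reached 0.194 RPKM in replicate 3, and Ctsg was listed at 0. S100a8 was at 80.6, 27.9, 62.5 and 203 RPKM and S100a9 at 31.3, 7.29, 9.003 and 137 RPKM. Control replicate 4, the highest for both, was also the highest for the granule genes Camp (0.299, 0.258, 0 and 39.9 RPKM), Ngp (0, 4.09, 0 and 6.09 RPKM) and Ltf (0, 0, 0 and 2.75 RPKM). Of the 10 detected members 6 were highest there, against 24.1% of all genes detected. The defining late granule genes Lcn2, Retnlg and Mmp9 were listed at 0 in all 4. The summed RPKM of the list was 553, 263, 417 and 821, and Ly6g was not analysed here.

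Of 20 monocyte, macrophage and dendritic genes 2 were present: lysozyme 2 (Lyz2), at 1019, 707, 768 and 788 RPKM, and cathepsin S (Ctss), at 24.9 ± 7.30 RPKM. The complement genes C1qa, C1qb and C1qc, which macrophages express, were at 14.5, 18.99 and 28.8 RPKM in control replicate 2, above the other 3 libraries in each case. Csf1r, Ccr2, Cx3cr1 and Siglech were listed at 0 in all 4. The eosinophil, basophil and mast list had no present member: Cpa3 was at 13.2 and 9.58 RPKM in control replicates 1 and 4, and the other 10, among them Epx, Prg2, Mcpt8 and Gzmb, were listed at 0.

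Lymphoid cell genes were mostly listed at 0, with single members well above 1 RPKM. Cd79b, a signalling chain of the B cell receptor, was at 83.3, 78.0, 58.8 and 103 RPKM, whereas its partner Cd79a was listed at 0 in all 4, as were Ms4a1 and Vpreb1. In all 13 of 16 B cell genes were listed at 0 in the 4 libraries. In the T and NK list, Klrb1c (NK1.1) was at 9.76, 9.47, 12.2 and 9.50 RPKM and Lck, a T cell receptor kinase, at 5.69, 17.6, 20.7 and 15.7 RPKM. Nkg7, a granule membrane protein, was at 35.8, 42.4, 46.6 and 0 RPKM, so control replicate 4 alone lacked it. Cd3e, Cd3g, Cd5 and Zap70 were among the 11 listed at 0. Emcn (61.6, 50.8, 20.8 and 50.1 RPKM) and Pecam1 (13.7 ± 4.42 RPKM), adhesion proteins of vessels that HSCs also carry, were the only 2 of 15 stromal and endothelial genes present, and Flt1, Cdh5, Adipoq and Acta2 were listed at 0.

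**Figure D2:**
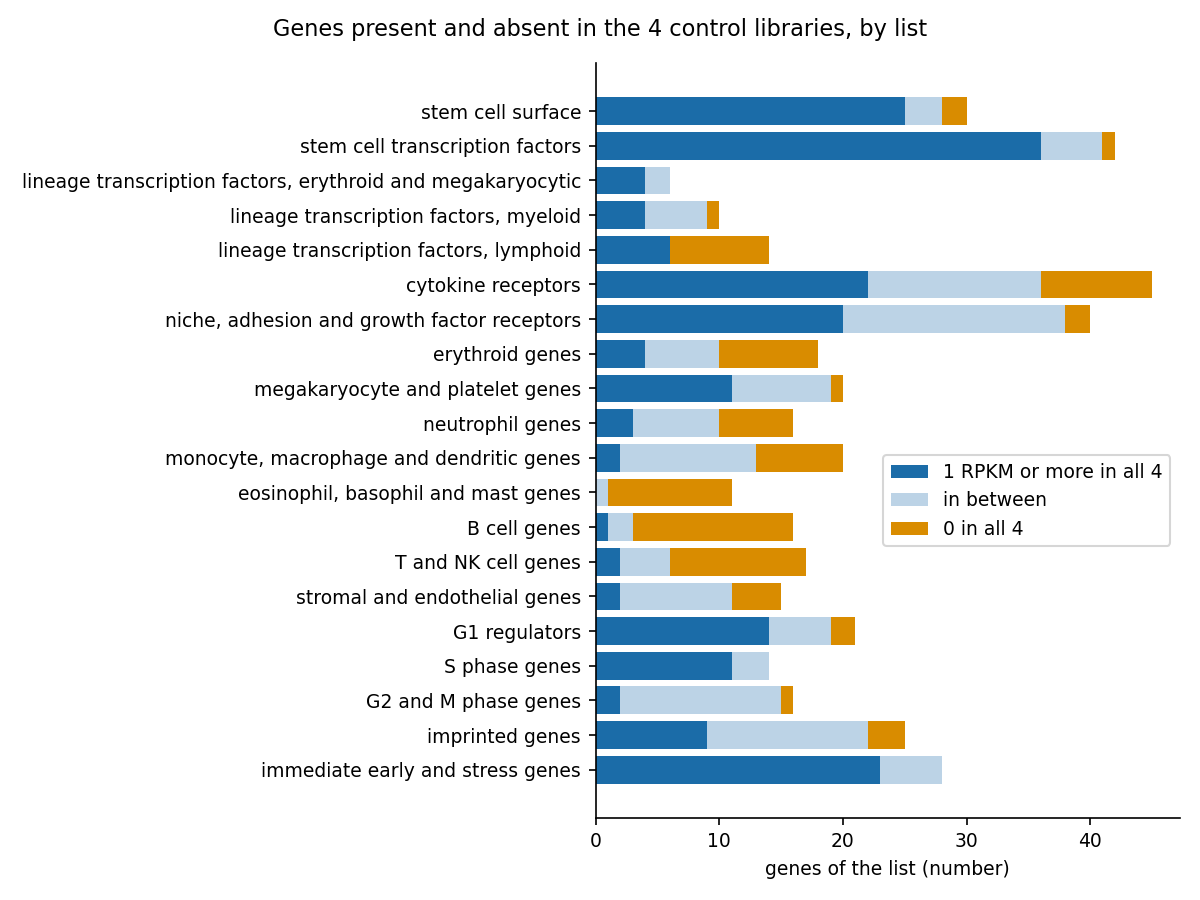
Number of genes on each of 20 lists that were at 1 RPKM or more in all 4 control libraries (dark blue), listed at 0 in all 4 (orange) or in between (light blue). The 2 stem cell lists are mostly dark blue, with 25 of 30 and 36 of 42 genes present, and 13 of 16 B cell genes and 10 of 11 eosinophil, basophil and mast genes are orange.

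Cell cycle genes were taken by phase, to be read against the 37.1% of all genes that were present and the 39.8% listed at 0. Of 21 G1 regulators 14 were present, 5 were in between, and 2, Cdkn2a and Cdkn2b, inhibitors tied to senescence, were listed at 0. The cyclin-dependent kinase Cdk4 was at 451, 414, 392 and 343 RPKM, its inhibitor Cdkn2d (p19Ink4d) at 116, 98.3, 67.8 and 118 RPKM, and the D cyclins Ccnd2 and Ccnd3 at 99.0 ± 19.1 and 98.4 ± 23.9 RPKM. Cdkn1c (p57Kip2, chr7:143458339-143461050, minus strand), the inhibitor most closely tied to HSC quiescence, was at 81.0, 82.8, 84.5 and 79.6 RPKM, a 1.06-fold range. Its relatives Cdkn1a (p21) and Cdkn1b (p27) were at 9.75 ± 3.35 and 8.33 ± 3.80 RPKM.

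S phase genes were present in 11 of 14 cases, led by the sliding clamp Pcna (111, 105, 133 and 145 RPKM) and by Mcm6 (40.0, 110, 114 and 84.8 RPKM) and Mcm3 (38.3, 95.7, 94.95 and 10.2 RPKM) of the replicative helicase. Mcm7 was at 45.9, 44.2, 69.4 and 25.2 RPKM. Control replicate 3 was the highest library for 10 of the 14, against 27.3% of all genes detected, and control replicate 1 for none of them. Control replicate 4 was listed at 0 for Mcm5, Rrm2 and Cdc45 although it was the highest for Pcna. The summed RPKM of the list was 351, 598, 686 and 343.

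Only 2 of 16 G2 and M phase genes were present, against 37.1% of all genes. Another 13 were in between, and Plk1, the polo-like mitotic kinase, was listed at 0 in all 4. Cdc20, an activator of the anaphase-promoting complex, was at 4.02, 9.48, 18.3 and 4.32 RPKM and the mitotic kinase Cdk1 at 7.08, 4.85, 10.3 and 12.0 RPKM. Ccnb2, a B-type cyclin, was at 0, 0.636, 28.4 and 0 RPKM and Aurkb, the kinase of the chromosomal passenger complex, at 0, 0.0264, 14.2 and 0 RPKM. Mki67, the classical proliferation marker, was at 2.88 RPKM in control replicate 3 and at or under 0.399 RPKM in the other 3. Replicate 3 was the highest library for 12 of the 15 detected members, whereas it was the highest for 27.3% of all genes detected. The summed RPKM of the list was 18.8, 21.6, 109 and 25.9.

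Genes of mitosis are known for CCAAT boxes near their start sites, which bind the trimeric factor NF-Y. The windows of Cdc20, Cdk1 and Ccnb2 are shown because they are the 3 highest members by mean, with CCAAT or its complement ATTGG in capitals.
Cdc20, chr4:118437344-118437593, minus strand: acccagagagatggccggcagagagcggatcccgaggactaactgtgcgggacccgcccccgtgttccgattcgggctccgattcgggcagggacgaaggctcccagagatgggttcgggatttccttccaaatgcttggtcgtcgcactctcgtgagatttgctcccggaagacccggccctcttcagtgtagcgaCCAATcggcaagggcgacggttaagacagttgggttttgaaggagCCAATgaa
Cdk1, chr10:69352913-69353162, minus strand: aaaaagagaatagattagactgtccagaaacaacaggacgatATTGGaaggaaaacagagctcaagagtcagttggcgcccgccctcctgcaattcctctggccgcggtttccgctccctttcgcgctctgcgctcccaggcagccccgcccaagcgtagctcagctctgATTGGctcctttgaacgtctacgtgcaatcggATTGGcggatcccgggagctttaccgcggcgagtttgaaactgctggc
Ccnb2, chr9:70421555-70421804, minus strand: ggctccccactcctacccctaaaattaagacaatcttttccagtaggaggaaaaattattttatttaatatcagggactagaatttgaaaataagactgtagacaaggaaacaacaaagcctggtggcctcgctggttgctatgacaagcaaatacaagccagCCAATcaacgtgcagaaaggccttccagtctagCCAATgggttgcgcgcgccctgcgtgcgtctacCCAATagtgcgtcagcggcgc
Ccnb2 had 3 matches, at -87, -54 and -21, evenly spaced and all in the same direction. Cdk1 had 3 on the opposite strand, at -208, -80 and -48, and Cdc20 had 2, at -53 and -8. Of the 16 genes on the list 13 had a window, and 12 of these held CCAAT on either strand, against 34.5% of all windows of the reference table. The share was not particular to this list: of 14 S phase genes 12 had a window, and 9 of these held CCAAT.

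Immediate early and stress genes were abundant: 23 of 28 were present, against 37.1% of all genes, and none was listed at 0 in all 4. Dusp1, a phosphatase of MAP kinases, was at 1146, 942, 519 and 1400 RPKM and the AP-1 subunit Fos at 880, 281, 412 and 1220 RPKM. The mRNA-decay factor Zfp36 was at 707, 347, 310 and 1160 RPKM, and Ppp1r15a, a phosphatase subunit of the stress response, at 267, 584, 502 and 666 RPKM. All 4 genes were highest in control replicate 4. In total 18 of the 28 were highest there, against 24.1% of all genes detected, and none was highest in replicate 2. The summed RPKM of the list was 5909, 4126, 4478 and 8462 in control replicates 1 to 4. Hspa8, a constitutive chaperone, went the other way, with 314, 327, 518 and 194 RPKM. As background, immediate early genes are switched on within minutes by many stimuli. Handling times of the samples are not stated in the labels.

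The window of Fos is shown because, of the 4 early genes named first, it had the widest range, 4.35-fold. It holds a TATA box and a GC box, in capitals.
Fos, chr12:85473640-85473889, plus strand: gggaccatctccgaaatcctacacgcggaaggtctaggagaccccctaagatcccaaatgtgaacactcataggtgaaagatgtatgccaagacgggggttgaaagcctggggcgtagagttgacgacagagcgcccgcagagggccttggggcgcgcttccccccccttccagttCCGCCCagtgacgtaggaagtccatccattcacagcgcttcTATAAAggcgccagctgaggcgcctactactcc
The TATAAA begins at -33 and the GC box, read on the opposite strand, at -74. TATAAA occurred in 5.92% of the windows of present genes and in 3 of the 22 windows found for the 28 early genes, a list of which 78.6% had a window, so its share is void as a check.

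**Figure D3:**
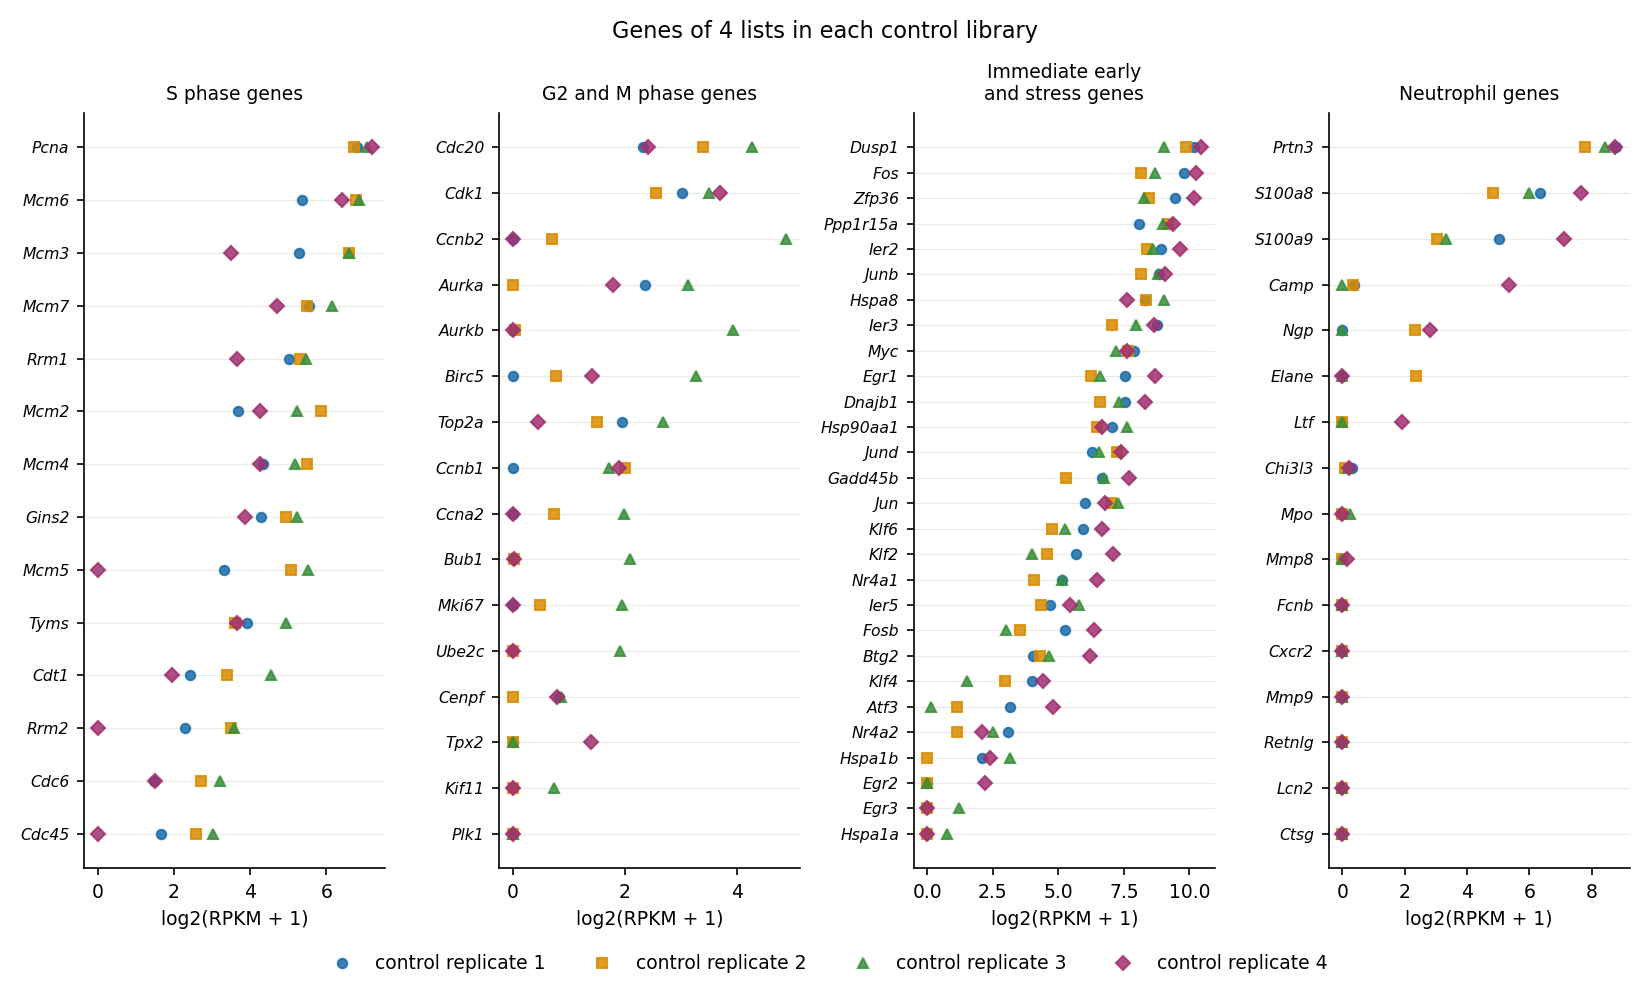
Levels as log2(RPKM + 1) of S phase, G2 and M phase, immediate early and stress, and neutrophil genes in each of the 4 control libraries, 1 row per gene. Green triangles (control replicate 3) lie furthest to the right for 12 G2 and M phase genes, and purple diamonds (control replicate 4) for 18 early and 6 neutrophil genes.

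Imprinted genes, which are expressed from 1 parental allele and many of which restrain growth, were present in 9 of 25 cases, near the 37.1% of all genes. Gnas, encoding the stimulatory G protein subunit, was at 189, 176, 135 and 173 RPKM, Ndn (necdin), linked to HSC quiescence, at 124, 111, 103 and 104 RPKM, and Impact at 94.9, 81.5, 34.0 and 92.5 RPKM. Cdkn1c, given above, belongs to this list as well. The fetal growth genes H19 and Igf2 reached 1.67 RPKM in control replicate 1 and 0.834 RPKM in replicate 4 as their highest values. Mirg, Snrpn and Nespas were listed at 0 in all 4. Snrpn shares reads with an overlapping gene and Nespas lies antisense to Gnas, so their zeros depend on how the authors assigned reads.

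The genes targeted in the series had low to moderate levels in the controls. Ezh2 was at 18.1, 29.6, 29.5 and 8.11 RPKM, its paralog Ezh1 at 5.06, 24.1, 14.97 and 6.93 RPKM, and the partner subunits Eed and Suz12 at 64.6 ± 14.1 and 8.64 ± 4.64 RPKM. Jak2 was at 17.0, 19.3, 14.1 and 21.2 RPKM. Control replicate 4, the lowest for Ezh2, was the highest for Jak2.

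The spread between the 4 libraries depended strongly on level. The median CV was 0.805 for genes with a mean of 1 to 5 RPKM, 0.470 from 5 to 20, 0.303 from 20 to 100 and 0.191 from 100 upward. Among the 4538 genes with a mean of at least 20 RPKM, 8 were listed at 0 in at least 1 library. The steadiest of these was Vdac3, a mitochondrial outer membrane channel, with 146, 144, 147 and 145 RPKM (CV 0.0089). Wdr61 (CV 0.0196), the respiratory chain subunit Ndufb7 (CV 0.0204), Mrfap1, Cuedc2, Cdkn1c (CV 0.0262), the RNA exonuclease Rexo2, the mitochondrial protease Clpp, Fam162a and Tango2 followed, all with a CV under 0.031. The order of these 10 was not tested.

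**Figure D4:**
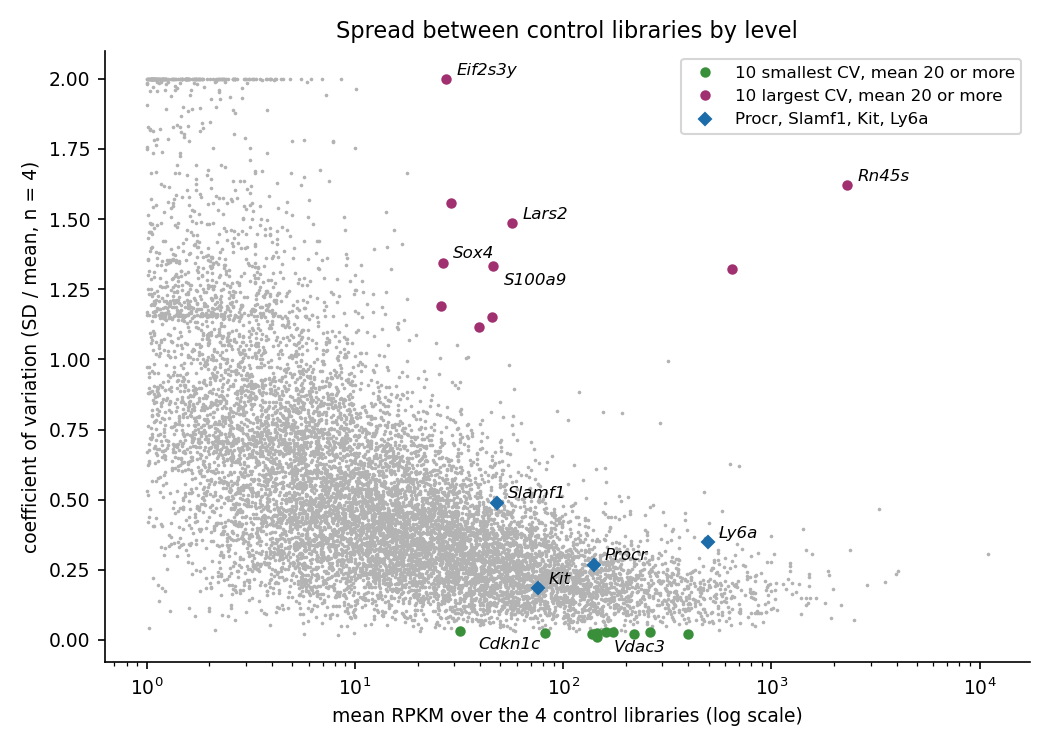
Coefficient of variation over the 4 control libraries against mean RPKM (log scale), 1 grey point per gene with a mean of at least 1 RPKM. Median CV falls from 0.805 at 1 to 5 RPKM to 0.191 at 100 RPKM and above; green and purple points are the 10 steadiest and 10 most variable genes with a mean of at least 20 RPKM, and blue diamonds the 4 sorting markers.

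At the other end, single libraries made nearly all of the largest CVs. Control replicate 3 was high for Rn45s, for Mir5109 (168, 139, 1922 and 361 RPKM), for Lars2 (9.80, 3.73, 183 and 31.7 RPKM), for the factor Sox4 (6.80, 8.52, 79.8 and 10.7 RPKM) and for the endoplasmic reticulum gene Sdf2l1 (24.6, 25.5, 124 and 8.81 RPKM). In the 2 JAK2V617F libraries of the same title style Lars2 was at 108 and 10.6 RPKM and Rn45s at 3811 and 364 RPKM. Whether Lars2 and Rn45s share reads was not tested. Control replicate 4 was high for the kinase Sgk1 (11.1, 10.7, 9.73 and 72.0 RPKM) and for S100a9. Control replicate 2 was high for AA465934 (9.83, 96.5, 3.93 and 5.56 RPKM). The small nucleolar RNA Snord99 was at 1.07, 10.1, 49.4 and 97.96 RPKM, with no 2 libraries alike. Levels of small RNAs in a full-length mRNA protocol depend on how reads of host genes were assigned, and Mir5109, Mirlet7a-1 and the Snord genes named here are uncertain for that reason.

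A gene was counted as high in 1 library only when it reached 20 RPKM there and at least 10 times the highest of the other 3. There were 2 such genes in control replicate 1, 2 in replicate 2, 4 in replicate 3 and 5 in replicate 4. In replicate 1 these were the Y-linked genes Eif2s3y (110, 0, 0 and 0 RPKM) and Ddx3y (34.2, 0, 0.0106 and 0.0114 RPKM), and Xist, the RNA of the inactive X chromosome, was at 0.0100, 8.12, 16.5 and 15.4 RPKM. By these genes replicate 1 holds RNA of male cells and replicates 2 to 4 of female cells, so sex and the other differences of replicate 1 cannot be told apart. In replicate 2 they were C1qc and Snord98 (0, 22.1, 0 and 0 RPKM). In replicate 3 they were Rn45s, the interferon-stimulated genes Isg15 (1.74, 1.98, 36.3 and 0 RPKM) and Ifi27l2a (0, 0, 27.8 and 0 RPKM), and Ccnb2. In replicate 4 they were Camp, Ptgds (2.75, 0, 0 and 28.7 RPKM), Snord15b (0, 0, 0 and 24.7 RPKM), Dqx1 (0, 0.0980, 0 and 23.3 RPKM) and Mirlet7a-1 (1.91, 0, 0 and 20.8 RPKM). Conversely, 14 genes were at 20 RPKM or more in 3 libraries and at least 10 times lower in the remaining 1. Among them Myl10, a myosin light chain chosen after its values were seen, was at 7.87, 280, 237 and 95.1 RPKM.

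The fifth control library was compared with the 4 as a check, without a test, since it is 1 library. Of the 8686 present genes, 7819 (90.0%) reached 1 RPKM in it and 491 (5.65%) were listed at 0. When each of the 4 was set against the other 3 in the same way, 93.4 to 97.9% of genes reached 1 RPKM. Of the genes listed at 0 in the 4, 73 reached 1 RPKM in the fifth. Among 12696 genes at 1 RPKM or more in any of the 5 libraries, the fifth lay above all 4 for 2862 (22.5%) and below all 4 for 3772 (29.7%).

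Read against those shares, 13 of 16 G2 and M phase genes lay above all 4 in the fifth library: Ube2c was at 34.7 RPKM, against 0 to 2.76 in the 4, Ccna2 at 21.7 RPKM, against 0 to 2.95, and Cdk1 at 43.3 RPKM. Of 30 stem cell surface genes 14 lay below all 4, among them Ly6a (126 RPKM) and Procr (88.5 RPKM), and 4 lay above, among them Cd34 (108 RPKM). Slamf1 (54.5 RPKM) and Kit (77.3 RPKM) lay within the range of the 4. Cdkn1c was at 9.43 RPKM and Tcf15 at 17.5 RPKM, both below all 4.

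Genes that serve all cells differed as well. Actb was at 10072 RPKM in the fifth library, against 888, 983, 556 and 916 in the 4, and the tubulin Tubb5 at 2016 RPKM, against 165 to 287. Rpl13 was at 86.6 RPKM, 22.8 times under the mean of the 4, Gapdh at 23.1 RPKM and the cyclophilin Ppia at 5.24 RPKM. All of these genes have processed pseudogenes, and whether reads were shared with copies in the same way in all libraries was not tested.

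**Figure D5:**
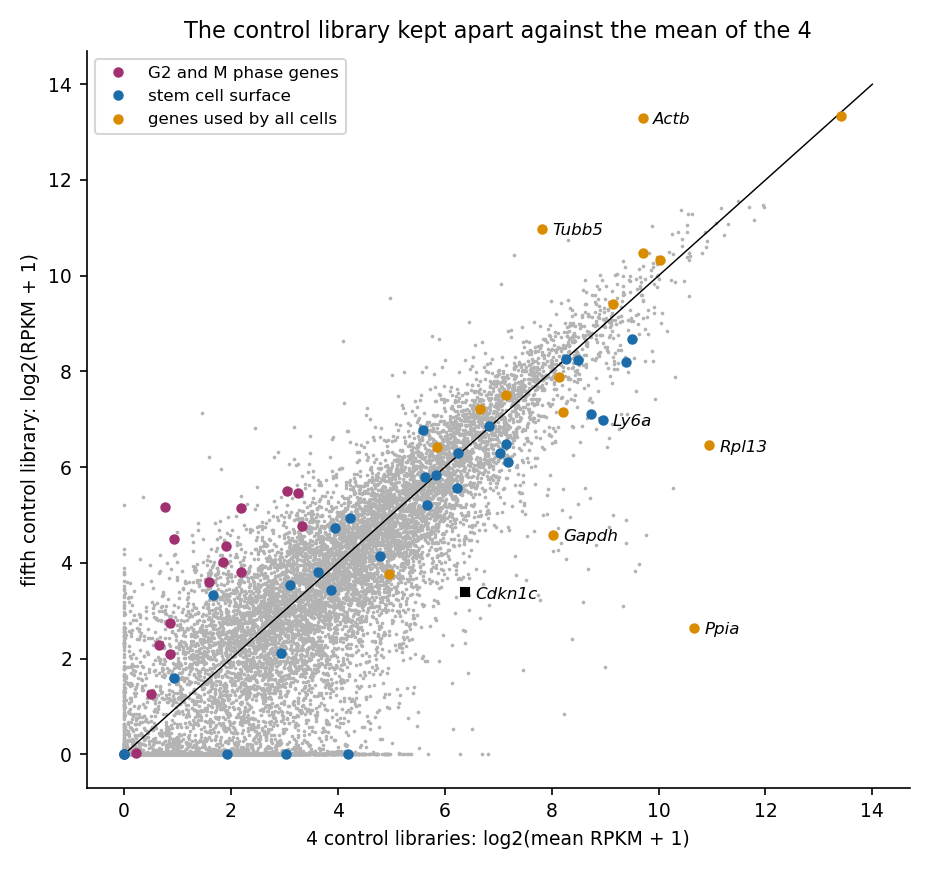
Level in the fifth control library against the mean of the 4, both as log2(RPKM + 1), 1 grey point per gene and a line at equality. Of 16 purple G2 and M phase genes 13 lie above every one of the 4, Actb and Tubb5 lie far above it, and Rpl13, Gapdh, Ppia and Cdkn1c (black square) lie far below it.

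The controls were compared with the double-mutant libraries of the same title style (4 against 7) to see where the baseline differs from a mutant HSC. With limma on log2(RPKM + 1), 11826 genes were tested and 0 had an adjusted p under 0.05 (0%), while 813 had an unadjusted p under 0.05 and the smallest adjusted p was 0.452. The median difference over all tested genes, double mutant minus control, was -0.01 on the log2 scale. Sex was not a term of the fit. The double mutants differed in Y-linked RNA as the controls did: Eif2s3y ran from 0 through a median of 23.8 to 128 RPKM in them. The part of sex in the comparison was not tested. For the markers, the double mutants ranged from 102 through a median of 130 to 222 RPKM for Procr, from 351 through 572 to 937 for Ly6a, from 75.6 through 89.8 to 165 for Kit and from 8.13 through 26.4 to 52.8 for Slamf1. The ranges of both groups overlapped for each of the 4. In log2 the differences were -0.04 for Procr (SE 0.22, limma adjusted p = 0.988), 0.24 for Ly6a (SE 0.28, adjusted p = 0.922), 0.45 for Kit (SE 0.24, adjusted p = 0.775) and -0.71 for Slamf1 (SE 0.40, adjusted p = 0.781). Ezh2 ranged from 6.71 through a median of 15.1 to 31.4 RPKM in the double mutants, overlapping the 8.11 to 29.6 RPKM of the controls, and was at 14.8 and 27.6 RPKM in the Ezh2-loss libraries. Its level over the whole gene therefore does not show the labelled loss, and cannot show a deletion of single exons. Ezh2 differed by -0.28 (SE 0.43, limma adjusted p = 0.946) and Jak2 by -0.94 (SE 0.52, adjusted p = 0.779).

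Cd48, at 0 in every control, had a median of 9.17 RPKM in the double mutants, with a range of 0 to 65.1, and did not pass either (log2 difference 3.02, SE 0.91, limma adjusted p = 0.703). Vwf was at 1.47 to 5.26 RPKM in the double mutants with a median of 4.30, wholly below the 9.27 to 25.7 RPKM of the controls (log2 difference -1.55, SE 0.43, limma adjusted p = 0.703). When control replicate 3 was left out, 1 gene was called: Ifi27l2a, at 0 in the other 3 controls and at 8.95 to 195 RPKM in the double mutants (log2 difference 5.61, SE 0.70, limma adjusted p = 0.0033). With all 4 controls it stood at 4.40 (SE 0.93, limma adjusted p = 0.452). Cd48, Vwf and Ifi27l2a were named after their values were seen. Beside these values, the summed RPKM of the neutrophil list ran from 255 through a median of 917 to 52998 in the double mutants, against 263 to 821 in the controls, and its part in the comparison was not tested.

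The double-mutant libraries split by their level of Actb. Actb was at 824, 951 and 845 RPKM in double-mutant replicates 1, 2 and 5, inside the range of the 4 controls, and at 5229, 4147, 4306 and 4726 RPKM in replicates 3, 4, 6 and 7, on the side of the fifth control. Those 4 carry the highest numbers in the titles of the double mutants. The genes of this paragraph were picked with their values known, and no share over all genes is given beside their counts. Notch2, Jund and Ldb1 also put 4 of the 7 double mutants on the fifth control's side of the 4 controls. Tubb5, Cdkn1b and Cdkn1c put 5 and Cebpb 6 there. Gapdh put 0 there, Ppia 2 and Rpl13 3. Any level outside the range of the 4 was counted, however close to it. Tubb5 in double-mutant replicate 2 was at 311 RPKM, against 287 in the highest of the 4 and 2016 in the fifth control. Cebpb in replicates 2 and 5 was at 39.3 and 37.9 RPKM, against 56.5 in the lowest of the 4 and 2.24 in the fifth. The 3 Rpl13 levels were 1454 to 1575 RPKM, against 1609 in the lowest of the 4 and 86.6 in the fifth. Notch2 was at 58.8, 58.5, 45.6 and 48.5 RPKM in replicates 3, 4, 6 and 7, against 4.29 to 9.20 in the other 3 and 79.1 RPKM in the fifth control. Jund was at 9.24, 6.11, 8.49 and 8.12 RPKM in these 4, against 114 to 142 in the other 3 and 9.55 RPKM in the fifth control. Without them, 0 of 11383 genes were called by limma, with 780 at an unadjusted p under 0.05, the difference of Jak2 was -0.05 in place of -0.94, that of Slamf1 -1.33 in place of -0.71, and that of Procr turned to 0.09. Whether these libraries were prepared or processed apart is not stated in the labels.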

How the data were processed

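RNA-seq of sorted HSCs was analysed from 1 deposited table of 23416 genes in 26 libraries. Its values are RPKM that the authors computed and deposited; per the submitters' processing notes the tools were STAR 2.4.2a, SAMtools 0.1.19 and Subread 1.5.0 on mm10/GRCm38. Gene lengths, annotation, strand setting and treatment of multiply mapped reads were not given in the sources used here. Counts were not used, so no count test was run. Depth was recovered from the steps of the RPKM values with GENCODE M21 exon lengths (21751 symbols matched); floors are 3 reads and cover counting error only.

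Genes at 1 RPKM or more in all 4 controls were called present, and genes at 0 in all 4 were called listed at 0. Replicate numbers of the controls were given in accession order and pair nothing. The CV is the SD over the mean (n = 4). Double mutants were compared with controls by limma 3.58.1 (R 4.3.3) on log2(RPKM + 1), with 1 mean per group over the 15 libraries of the same title style, a trended robust prior, 2-sided tests and Benjamini-Hochberg adjustment over genes at 1 RPKM or more in at least 4 libraries; fold changes on that scale understate those of low genes. The fit was tested on simulated data. Other values came from Python 3.11.15 (pandas 2.3.3, numpy 2.4.6, matplotlib 3.10.9). Promoters are RefSeq windows (GRCm38.p6), found for 17702 of the table's symbols.

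Genes were named by rule: the 4 sorting markers, Ezh2 and Jak2, the 15 highest, the 4 highest present and up to 4 absent members of each of 23 lists (more for the stem cell lists), the 10 steadiest and 10 most variable at a mean of 20 RPKM or more, and the highest genes of 1 library. Others described on the lists are list members. Members and lists were chosen with earlier results of these data known. The older symbol of Spi1 was added once the table had been read. Lists share members, such as Kit and Cdkn1c. A few genes that the rule names are not reported here. Alternatives were other thresholds, pseudocounts, scalings and filters, libraries left out, and the fifth control included.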

Additional observations from a re-analysis of the deposited data

Results flagged for a closer look

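Among the 132 genes named for the controls and the same test in the double mutants where it was made, 138 sets of values were examined for a library far from the rest by Dixon's ratio, and 22 stood out. Chance flags about 1 in 20 where values are normally distributed and genes were not picked for their spread. Genes picked for their spread are among the 22, so these shares cannot be set against each other. In control replicate 3, 8 genes were high: Rn45s (7907 RPKM, others 214 to 615), Mir5109 (1922 RPKM, others 139 to 361), Lars2 (183 RPKM, others 3.73 to 31.7), Sdf2l1 (124 RPKM, others 8.81 to 25.5), Sox4 (79.8 RPKM, others 6.80 to 10.7), Isg15 (36.3 RPKM, others 0 to 1.98), Ccnb2 (28.4 RPKM, others 0 to 0.636) and Klrb1c (12.2 RPKM, others 9.47 to 9.76). The globin gene Beta-s was low there, at 2.16 RPKM against 14.9 to 16.8 RPKM.

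Control replicate 1 was apart for Meis1 (195 RPKM, others 133 to 136), Eif2s3y (110 RPKM, others 0), Ddx3y (34.2 RPKM, others 0 to 0.0114) and Alcam (10.7 RPKM, others 5.02 to 5.75). Control replicate 2 was apart for AA465934 (96.5 RPKM, others 3.93 to 9.83), C1qc (28.8 RPKM, others 0 to 2.70) and Snord98 (22.1 RPKM, others 0), and was low for Gpx1, at 2234 RPKM against 2564 to 2627 RPKM. Control replicate 4 was apart for Sgk1 (72.0 RPKM, others 9.73 to 11.1), Camp (39.9 RPKM, others 0 to 0.299), Ptgds (28.7 RPKM, others 0 to 2.75) and Snord15b (24.7 RPKM, others 0). The most variable genes and those high in 1 library were named for their spread, so their place here follows from how they were chosen. In the double mutants, Procr was at 222 RPKM in replicate 1 against 102 to 147 RPKM in the other 6.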

How the results depend on the processing

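The numbers of genes present and listed at 0 stayed within 1.5 times of the values given under every threshold, scaling and left-out library tried: leaving out each control in turn gave 8875 to 9301 present and 9612 to 9880 listed at 0. Of the counts by list, 3 moved further. At a threshold of 2 RPKM 2 myeloid factors were present in place of 4, and with the fifth control included 1 monocyte, macrophage and dendritic gene and 1 T and NK cell gene were present in place of 2 each. Between double mutant and control, limma called 0 genes under each alternative but 2: 1 gene, Gm2a, with all 26 libraries and title style as a covariate (log2 difference 1.55, limma adjusted p = 0.0186), and 1 gene, Ifi27l2a, without control replicate 3, so leaving out single libraries gave 0 to 1. Unadjusted p under 0.05 was reached by 542 to 924 genes. The log2 difference of Procr, near 0, changed sign with quantile normalization (0.029) and without the 4 double mutants of highest title number (0.092), and ran from -0.20 to 0.079 when single libraries were left out, with values above 0 without control replicates 1 (0.079) and 4 (0.057) and double-mutant replicates 5 (0.011) and 7 (0.019). Leaving out single libraries moved the other log2 differences without a change of sign: Ly6a (0.24) to between 0.034 without control replicate 2 and 0.44 without control replicate 1, Ezh2 (-0.28) to between -0.66 without control replicate 4 and -0.077 without control replicate 2, Slamf1 (-0.71) to between -0.90 and -0.42, and Jak2 (-0.94) to between -1.16 and -0.62. The cause of these moves was not tested. The fifth control lay above all 4 for 2906 genes and below for 3719 after rescaling to TPM, and for 3274 and 3457 after median ratio scaling. The TPM, median ratio and title-number alternatives for these counts were chosen after seeing the data. No paired analysis was possible because the control replicates carry no number that ties them to another group.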
